A study of Mus musculus with 5 samples.

Results

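The genes described here are targets and regulators of the sterol regulatory element-binding proteins (SREBPs), which drive cholesterol and fatty acid synthesis. Of 34 listed genes, 30 were measured on the arrays among 19505 genes in all. They comprise 16 enzymes from acetoacetyl-CoA to cholesterol (the sterol branch), 9 proteins of fatty acid synthesis, elongation and desaturation (the fatty acid branch) and 5 regulators and sterol-handling proteins. Acat2, Tm7sf2, Scd2 and Srebf1 had no probe set under their symbol and were not analysed here. The list was proposed after differences between the genotypes had been seen, with Dhcr7, Tmem97 and Mid1ip1 among the genes noticed. The members were thus partly chosen from the same MyD88-ko against WT differences that are given below, which are therefore a description without a test. Each member had 1 probe set on these arrays.

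The RNA came from 3 MyD88-ko and 2 WT samples of C57BL/6 mice, aged 6 to 12 weeks and of either sex. Both groups carried B16-F10 melanoma, a mouse tumour line engrafted under the skin, for 15 days. Macrophages were then sorted as CD45, F4/80 and CD11b positive and CD3, B220 and NK1.1 negative. The labels of all 5 samples call them tumour-associated macrophages (TAMs), while the growth protocol gives spleen cells as the source. MyD88 is the adaptor through which IL-1 family receptors and nearly every Toll-like receptor signal. The labels give neither the deleted exons nor whether the deletion was confined to some cells, and they do not say that each array was a separate mouse. The spread between arrays may therefore be technical, and the small number of arrays limits the precision.

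SREBPs are made as precursors in the endoplasmic reticulum membrane. When sterols are scarce, the escort protein SCAP carries them to the Golgi apparatus, where proteases free the part that enters the nucleus. INSIG proteins hold SCAP back when sterols are plentiful. SREBP-2, from Srebf2, mainly drives cholesterol synthesis and SREBP-1, from Srebf1, mainly fatty acid synthesis, and in macrophages both pathways supply membrane lipid. Because SREBPs are switched by cleavage, the mRNA of their target genes is often read as a sign of their activity.

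In the nucleus SREBPs bind the sterol regulatory element (SRE) and also the E-box CACGTG, usually with NF-Y at a CCAAT box and Sp1 at the GC box GGGCGG. Promoter windows from 250 bases before to 50 after an annotated start were taken from RefSeq (build GRCm38.p6). They covered 27 of the 34 listed genes with 33 windows; Fdps, Fdft1, Sqle, Scd1, Scd2, Fads1 and Stard4 were not matched. Each motif was searched on both strands. The SRE core TCACNCCAC lay in 1 of the 27 genes, Hmgcs1, or 3.7%, against 1.44% of all 27025 genes in the table. The relaxed form TCACNNCAC, which includes the core and was added after the data were examined, lay in 4 (Dhcr7, Hmgcs1, Hsd17b7 and Msmo1), or 14.8% against 4.37%. The E-box lay in 5 (Dhcr7, Hsd17b7, Insig1, Sc5d and Scap), or 18.5% against 8.09%.

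A CCAAT box lay in 21 of the 27 genes, 77.8% against 41.1% of all genes, and a GC box in 23, 85.2% against 38.2%. Among the 15691 genes of the table that are also on the arrays, the shares were 42.2% for CCAAT, 51.2% for the GC box and 9.26% for the E-box. Neither form of the SRE was matched in the windows of Acly, Acss2, Acaca, Fasn, Mid1ip1, Elovl6 and Fads2, the fatty acid genes with a window. Of these, only Acly, Acss2 and Fasn held a CCAAT box, while every sterol branch gene with a window did except Acat2. A match is a string of letters and not a measured binding site, and the lack of one says only that these letters are not in that window.

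Parts of 5 windows, from 180 to 31 bases before the start, are shown because they hold every relaxed SRE found and the E-box of the feedback regulator Insig1. Capitals mark relaxed SRE, E-box and CCAAT letters, the last also as ATTGG where the match is on the other strand. In Msmo1 a CCAAT box and the relaxed SRE share 1 base. The Dhcr7 stretch belongs to 1 of 3 annotated starts.
Hmgcs1, chr13:119690171-119690320, plus strand: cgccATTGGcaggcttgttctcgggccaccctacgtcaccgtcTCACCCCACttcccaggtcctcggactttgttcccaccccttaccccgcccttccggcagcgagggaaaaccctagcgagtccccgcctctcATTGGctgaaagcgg
Msmo1, chr8:64733609-64733758, minus strand: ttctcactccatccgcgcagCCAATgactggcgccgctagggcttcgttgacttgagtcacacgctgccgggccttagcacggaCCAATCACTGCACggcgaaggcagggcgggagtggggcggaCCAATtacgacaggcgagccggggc
Hsd17b7, chr1:169969236-169969385, minus strand: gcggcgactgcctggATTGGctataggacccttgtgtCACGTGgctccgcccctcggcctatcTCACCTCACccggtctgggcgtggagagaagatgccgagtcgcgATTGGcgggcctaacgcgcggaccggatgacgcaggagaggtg
Dhcr7, chr7:143823219-143823368, plus strand: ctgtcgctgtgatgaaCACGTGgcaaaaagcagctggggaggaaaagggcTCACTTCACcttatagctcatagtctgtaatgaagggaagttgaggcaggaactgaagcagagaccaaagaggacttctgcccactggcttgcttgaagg
Insig1, chr5:28071232-28071381, plus strand: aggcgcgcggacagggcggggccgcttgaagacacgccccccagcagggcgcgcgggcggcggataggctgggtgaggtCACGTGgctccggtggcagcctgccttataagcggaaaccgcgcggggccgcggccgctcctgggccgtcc

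**Figure D1:**
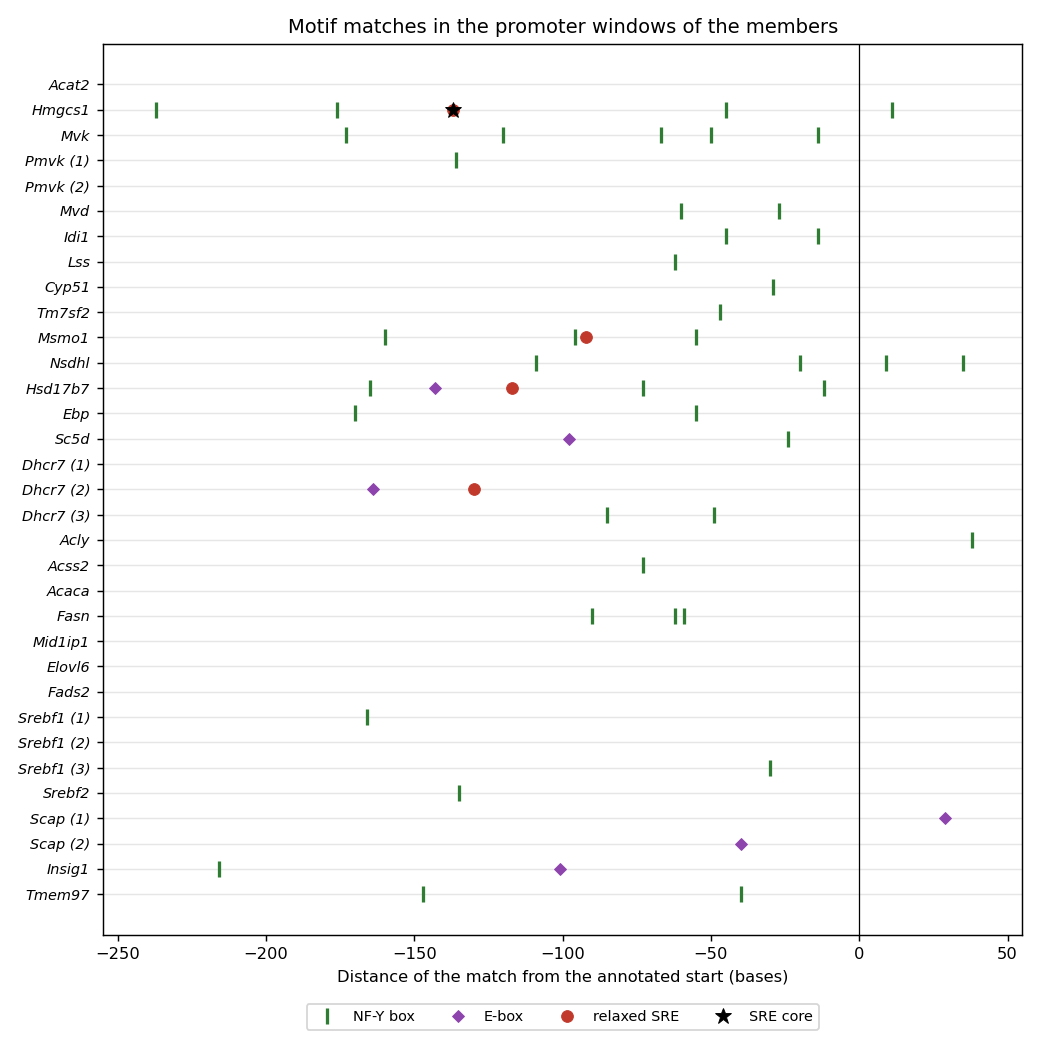
Positions of motif matches (horizontal axis, bases from the annotated start) in the 33 promoter windows of 27 listed genes (rows, numbered where a gene has several starts). CCAAT boxes (NF-Y box) lie in every sterol branch gene shown except Acat2, but in the fatty acid branch only in Acly, Acss2 and Fasn. The 4 relaxed SRE matches lie in genes of the sterol branch at 92 to 137 bases before the start.

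Before the members, the arrays themselves were compared. Pearson correlations between arrays ran from 0.969 to 0.992 across genes. A background limit was set on each array at the 95th percentile of 5222 negative control probe sets. It lay between 6.55 and 6.74 (log2) on the MyD88-ko arrays and at 6.91 and 6.96 on the WT arrays, and a gene under it on all arrays of a group has only an upper bound there. Genes above it numbered 3968 to 4334 on the MyD88-ko arrays and 3420 and 3480 on the WT arrays. A signal between 6.74 and 6.91 thus counts as above the limit in MyD88-ko and as under it in WT. The targeted gene Myd88 read 7.73, 7.01 and 7.58 in MyD88-ko and 8.46 and 8.40 in WT, lower without overlap and still above the limit, and whether its probes lie in the deleted part is not known here. Of 11 measured macrophage markers, 10 were above the limit on all arrays, and none of the 3 T cell, 3 B cell and 4 NK cell markers was above it on any array. Melanoma markers were present as well, with 7 of 9 above the limit on all arrays.

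Most measured SREBP pathway genes read higher in MyD88-ko than in WT samples, by small amounts. Of the 30 members, 24 (80.0%) had a positive difference, against 53.1% of all genes. All 3 MyD88-ko arrays lay above both WT arrays for 16 members (53.3%), against 14.8% of all genes, and below both for 0 members, against 12.9%. Of all genes, 14803 were under the background limit on every array. Among the 4702 genes above it on at least 1 array, 25.5% lay above both WT arrays and 21.8% below. The median difference was 0.28 on the log2 scale over the members and 0.02 over all genes. None of the members passed the fit across all genes (limma, Benjamini-Hochberg adjusted p under 0.05). Of all genes, 36 passed as lower in MyD88-ko and 1 as higher, in all 37 or 0.190%. That count was 0 without MyD88-ko replicate 1 or 3 or either WT replicate and 1 without MyD88-ko replicate 2. The lowest adjusted p among the members was 0.082, for Dhcr7. At an unadjusted limma p under 0.05 there were 12 members (40.0%), all of them higher. In that direction the share was 6.16% of all genes and 14.0% of genes above the limit on at least 1 array. Because these differences helped to choose the list, nothing is read from the counts.

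The separation was narrow for some genes. For Hmgcs1, Stard4 and Insig1 the lowest MyD88-ko array was above the highest WT array by 0.0059, 0.013 and 0.024 only. As measured, the gap was 0.74 for Dhcr7, 0.65 for Fads1 and 0.58 for Tmem97. Of the 30 members, 14 stayed under the background limit on every array, 7 lay above it on all arrays and 9 above it on some.

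**Figure D2:**
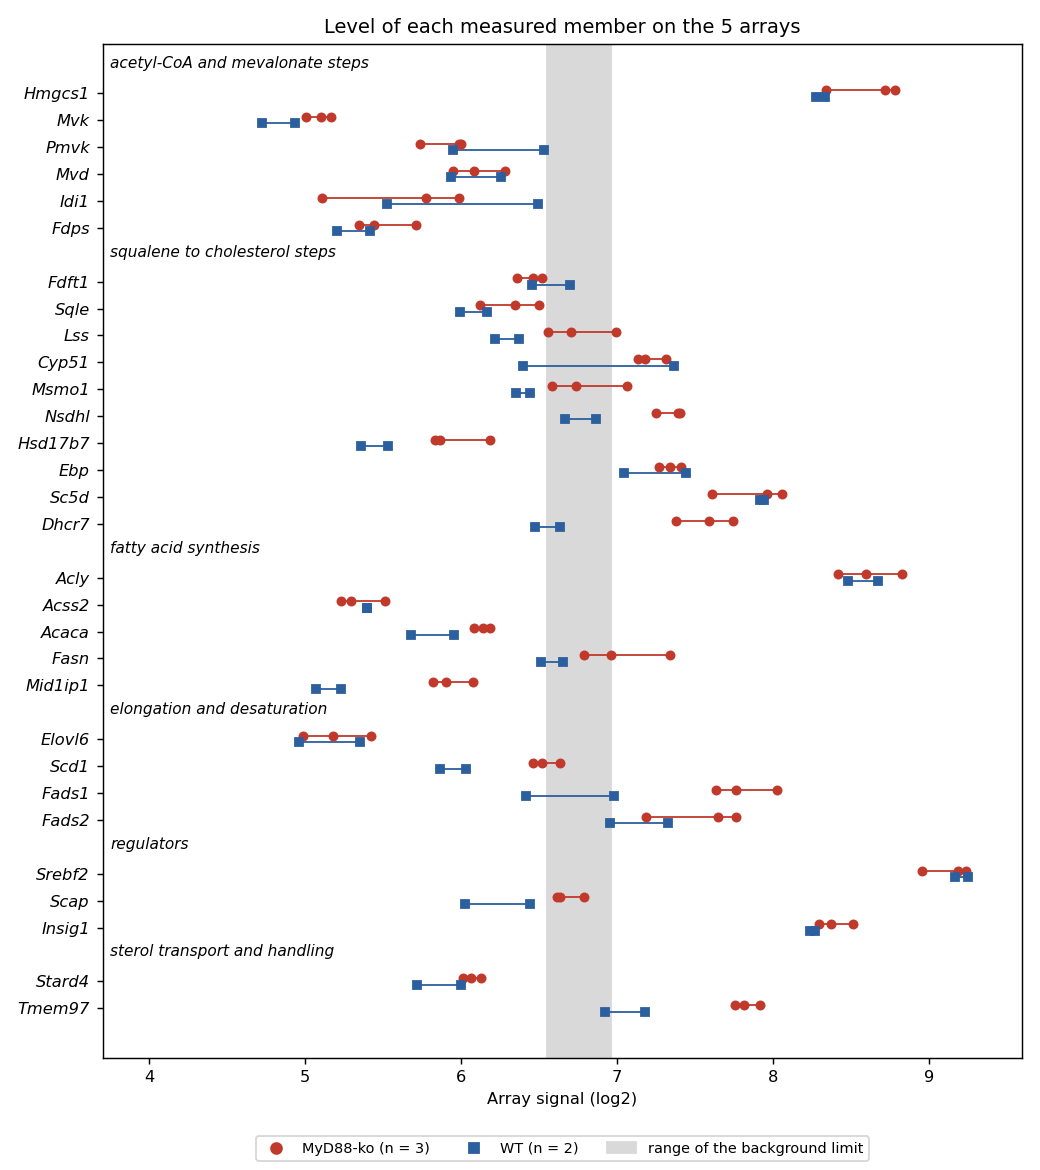
Log2 signal (horizontal axis) of the 30 measured members (rows, by role) on 3 MyD88-ko arrays (circles) and 2 WT arrays (squares), with lines joining the arrays of a group and the range of the background limit in grey. Circles lie wholly to the right of squares for 16 members and wholly to the left for none. Levels of different genes come from different probes and are not comparable.

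The early steps of the sterol branch build isoprenoid units from acetyl-CoA, and their differences went both ways. They ran from -0.39 for Idi1 to 0.31 for Hmgcs1, with 4 of the 6 genes positive and 2 negative (Pmvk and Idi1). Under the limit on every array were 5 of the 6, so these sizes are not firm. Hmgcs1, which makes HMG-CoA, read 8.34, 8.78 and 8.72 in MyD88-ko against 8.34 and 8.27 in WT, 1.24-fold higher. One MyD88-ko array thus sat at the WT level and the other two above it. Mvk, mevalonate kinase, read 5.16, 5.10 and 5.005 against 4.72 and 4.93, under the limit on all arrays and without overlap. For the 4 other genes of these steps the groups overlapped, and all 4 were under the limit on every array. They were the mevalonate pathway kinase Pmvk (means 5.91 and 6.24), the decarboxylase Mvd (6.10 and 6.10), the isomerase Idi1 (5.62 and 6.01) and the farnesyl diphosphate synthase Fdps (5.50 and 5.31).

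Idi1 was one of the genes on which the WT arrays disagreed, at 6.49 and 5.52, with MyD88-ko arrays from 5.11 to 5.99. The mean level of the 6 early genes was 5.96, 6.28 and 6.18 on the MyD88-ko arrays and 6.24 and 6.02 on the WT arrays, so the groups overlapped, and the median difference was 0.10.

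From squalene onward, 5 of the 10 measured genes did not overlap and 2 had a negative difference. The mean level of these genes was 6.86, 7.08 and 6.95 in MyD88-ko and 6.71 and 6.53 in WT, without overlap, and the median difference was 0.36. Fdft1 and Sqle, which make squalene and its epoxide, overlapped between groups and were under the limit throughout (means 6.45 and 6.58 for Fdft1, 6.32 and 6.08 for Sqle). Lss, the cyclase that forms lanosterol, read 6.56, 6.996 and 6.71 against 6.37 and 6.22. It was above the limit on 2 MyD88-ko arrays and on no WT array.

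The demethylation steps that follow were split between genes with and without overlap. Cyp51, the lanosterol demethylase, read 7.14, 7.18 and 7.31 in MyD88-ko and 7.36 and 6.40 in WT. The high WT array was replicate 1, and without WT replicate 2 the difference in Cyp51 turned from 0.33 to -0.15, while without WT replicate 1 it was 0.81. Msmo1, the C4 methyl sterol oxidase, read 6.58, 7.07 and 6.74 against 6.44 and 6.35. Nsdhl, the dehydrogenase of the same step, read 7.41, 7.39 and 7.25 against 6.87 and 6.67, at least 1.33-fold higher, since both WT values were under the limit. Hsd17b7, the ketoreductase, read 5.83, 6.18 and 5.87 against 5.53 and 5.36, all under the limit. The 3 enzymes Msmo1, Nsdhl and Hsd17b7 form the complex that removes the C4 methyl groups. All 3 lay higher without overlap, as did 14.8% of all genes.

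Dhcr7, which reduces 7-dehydrocholesterol to cholesterol, read 7.59, 7.75 and 7.38 in MyD88-ko (7.57 ± 0.19, SD, n = 3) and 6.64 and 6.48 in WT (6.56 ± 0.11, SD, n = 2). It was at least 1.55-fold higher, with WT under the limit, and it is one of the genes noticed before the list was drawn up. Ebp, the sterol isomerase, read 7.27 to 7.41 against 7.05 and 7.44, and Sc5d, the desaturase just before Dhcr7, read 7.61, 8.06 and 7.96 against 7.95 and 7.91. Both were above the limit on all arrays and overlapped, with differences of 0.10 and -0.05, and the sign turned without WT replicate 1 for Ebp and without MyD88-ko replicate 1 or at equal array medians for Sc5d.

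In the fatty acid branch, 3 of the 5 genes of fatty acid synthesis (60.0%) lay higher without overlap, against 14.8% of all genes. Under the limit on every array were 3 of the 5, so no split between steps is read from them. Acly, which splits citrate, read 8.59, 8.42 and 8.83 against 8.48 and 8.67, and Acss2, which activates acetate, had means of 5.35 and 5.40 under the limit. Both overlapped. Acaca, acetyl-CoA carboxylase 1, read 6.19, 6.08 and 6.14 against 5.68 and 5.95, under the limit. Mid1ip1, whose product promotes assembly of active acetyl-CoA carboxylase, read 5.82, 6.07 and 5.91 against 5.07 and 5.23. It too was under the limit on all arrays, so its measured values do not overlap but neither group has a firm level. Fasn, fatty acid synthase, read 6.79, 6.96 and 7.34 against 6.66 and 6.51, at least 1.07-fold higher.

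The desaturases did not share one pattern. Fads1, the delta-5 desaturase of polyunsaturated fatty acids, read 7.77, 8.02 and 7.63 in MyD88-ko (7.81 ± 0.20, SD, n = 3) and 6.42 and 6.98 in WT (6.70 ± 0.40, SD, n = 2). The measured means differ 2.16-fold, but WT replicate 1 was under its limit and only WT replicate 2 above, so the size is not firm. Leaving out single arrays moved its difference of 1.11 between 0.83, without WT replicate 1, and 1.39, without WT replicate 2. Fads2, the delta-6 desaturase next in the same cluster on chromosome 19, read 7.65, 7.18 and 7.77 against 7.33 and 6.96. MyD88-ko replicate 2 fell between the WT arrays, so Fads2 overlapped where Fads1 did not.

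Scd1, the delta-9 desaturase that makes oleate, read 6.52, 6.46 and 6.63 against 5.86 and 6.03, under the limit on all arrays and without overlap. Close copies exist (Scd2, Scd3 and Scd4), and whether the Scd1 probes tell them apart is not known here. Elovl6, which extends palmitate, overlapped, with means of 5.19 and 5.15.

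The branches were then set side by side. The sterol branch had a median difference of 0.25, with 12 of 16 genes (75.0%) positive and 7 (43.8%) higher without overlap. The fatty acid branch had a median of 0.39, with 8 of 9 (88.9%) positive and 5 (55.6%) higher without overlap. The shares over all genes were 53.1% and 14.8%, and among genes above the background limit on at least 1 array 54.6% and 25.5%. The sterol minus fatty acid contrast of the medians was -0.14, and it moved with single arrays. It was -0.03 without MyD88-ko replicate 3, -0.05 without MyD88-ko replicate 1 and -0.25 without MyD88-ko replicate 2, and -0.06 among genes above the background limit on at least 1 array. Lss, Msmo1, Nsdhl, Dhcr7 and Fasn met that filter on MyD88-ko arrays only. No difference between the branches is read from the contrast. With the mean of the Y-linked genes as a covariate the contrast turned to 0.056, with medians of 0.14 for the sterol and 0.088 for the fatty acid branch. The 3 measured Y-linked genes read lower on all MyD88-ko arrays than on both WT arrays (list means 4.59 to 5.51 against 5.89 and 6.03). Of these 3, 2 were under the limit on every array. Because the covariate itself separated the genotypes, its part in the differences cannot be told apart from genotype here. Nothing is read from that fit. Only 4 fatty acid genes were above the background limit on any array, of which 2 did not overlap, against 25.5% of all genes above the limit on at least 1 array.

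**Figure D3:**
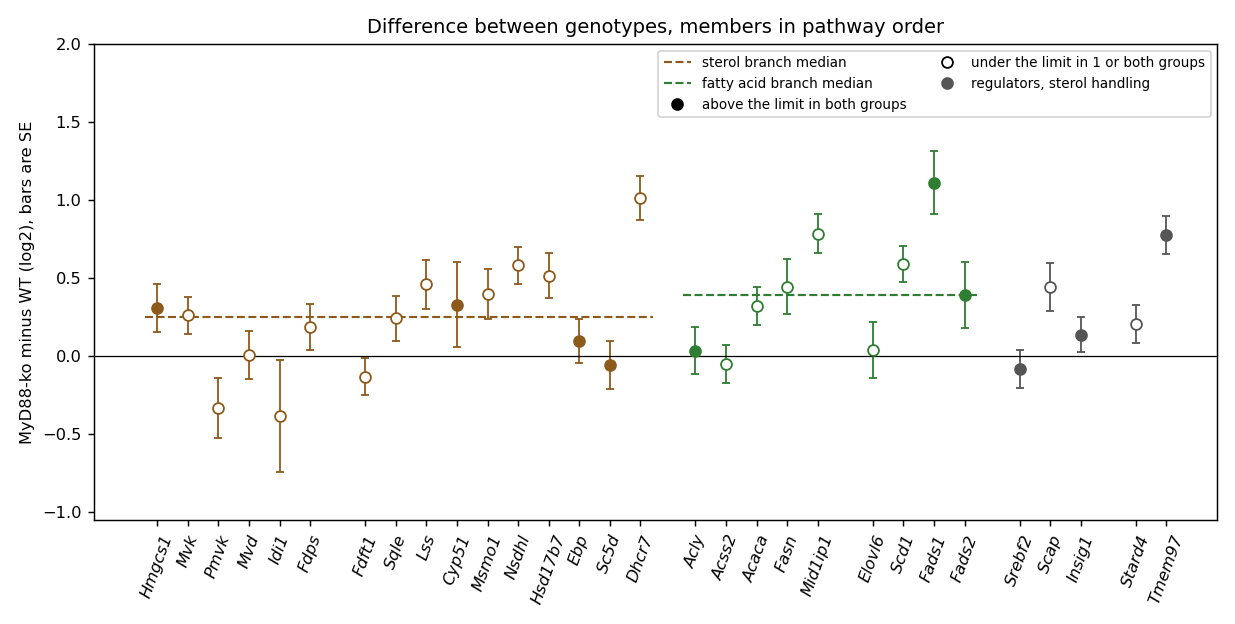
MyD88-ko minus WT difference (vertical axis, log2, with the standard error of the limma fit) for the 30 members in pathway order, sterol branch in brown, fatty acid branch in green, others in grey. Open circles are genes under the background limit on all arrays of 1 or both groups, whose difference has no firm size, and dashed lines are the branch medians of 0.25 and 0.39.

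The regulators did not share one pattern. Srebf2 read 8.96, 9.24 and 9.19 in MyD88-ko and 9.25 and 9.17 in WT, well above the limit and overlapping. Its difference was -0.08, with a 95% interval of -0.38 to 0.22. Scap read 6.62, 6.79 and 6.63 against 6.03 and 6.44, without overlap and above the limit on 2 MyD88-ko arrays only. Scap lies on chromosome 9 with Myd88, and any part of that in its difference was not tested. Insig1, itself an SREBP target, read 8.29, 8.37 and 8.51 against 8.27 and 8.24, a difference of 0.14 with a 95% interval of -0.13 to 0.41. All arrays were above the limit for Insig1, and the gap between the groups was smaller than the SD within MyD88-ko.

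Both sterol-handling genes lay higher without overlap, as did 14.8% of all genes. Tmem97, the sigma-2 receptor, a sterol-responsive membrane protein that interacts with NPC1, read 7.92, 7.75 and 7.81 against 6.92 and 7.18. It was above the limit on all arrays and 1.71-fold higher, as the MyD88-ko mean was 7.83 ± 0.08 (SD, n = 3) and the WT mean 7.05 ± 0.18 (SD, n = 2). Stard4, a cytosolic cholesterol carrier, had means of 6.06 and 5.86 under the limit.

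The 7 members above the limit on all arrays were Hmgcs1, Ebp, Sc5d, Acly, Srebf2, Insig1 and Tmem97. Their differences were 0.31, 0.10, -0.05, 0.03, -0.08, 0.14 and 0.78, so that the larger differences among the members, apart from Tmem97, came from genes that WT arrays placed near or under the limit. That limit was higher on the WT arrays. Nsdhl on WT replicate 1, at 6.87, was under its limit of 6.91 but above every MyD88-ko limit (6.74 at most).

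Other genes of these pathways, listed by function, were read in the same fit. Of 56 listed, 43 were measured, and none passed across all genes (limma, adjusted p under 0.05; 5, or 11.6%, were higher at an unadjusted p under 0.05, against 6.16% of all genes, and 2 lower). Their median difference was 0.15, and 15 (34.9%) lay above and 3 (6.98%) below WT without overlap, against 14.8% and 12.9% of all genes. The 4 with the lowest p-values were Erlin1, Cyp27a1, Acsl4 and Nceh1. Erlin1, a membrane protein of endoplasmic reticulum-associated degradation, had means of 6.33 and 5.87 and Cyp27a1, the sterol 27-hydroxylase, of 5.11 and 5.82, all under the limit.

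Acsl4, which activates arachidonate, read 7.47, 7.501 and 7.56 against 7.81 and 7.91, lower without overlap. Nceh1, a cholesteryl ester hydrolase of macrophages, read 10.12, 10.42 and 10.05 against 8.71 and 9.80. The SREBP machinery outside the list gave Mbtps1, the site-1 protease, at means of 7.37 and 7.11 with overlap, and Insig2 at 4.84 and 4.49, under the limit and without overlap.

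Genes of the liver X receptor (LXR) pathway, which responds to a surplus of sterols, were mostly on the same side. Lpcat3 and Pltp had differences of 0.55 and 0.46, and Mylip and Abcg1 of 0.42 and 0.49, without overlap. Abca1 (0.69) and Apoe (0.20) overlapped, as did the receptor Nr1h3, with means of 5.60 and 5.63 under the limit.

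Several lists for other cells or states differed with genotype in these bulk samples, where fewer cells of a type and less RNA per cell cannot be told apart. Over all 19505 genes, 53.1% had a positive difference and 9152 genes a negative one, and 1 passed as higher and 36 as lower. Proliferation genes read higher in MyD88-ko for 9 of 9 measured, with list means of 6.96 to 7.26 against 6.26 and 6.56. Of the 9, 2 were above the limit on all arrays and none passed across all genes. At an unadjusted limma p under 0.05 there were 7 (77.8%), against 6.16% of all genes in that direction. Neutrophil markers had list means of 4.46 to 4.82 against 6.44 and 6.92, with 8 of 9 lower, of which 4 passed across all genes. Classical monocyte markers had 7.01 to 7.59 against 8.89 and 9.28, with 6 of 6 lower, of which Hp passed. Macrophage markers had 9.83 to 9.85 against 9.44 and 9.79, with 8 of 11 higher. Without overlap, 6 (54.5%) lay higher and 3 (27.3%; Fcgr1, Itgam and Cd14) lower, against 14.8% and 12.9% of all genes. Melanoma markers overlapped, at 8.36 to 8.83 against 8.17 and 8.71, with 8 of 9 positive. Dendritic cell markers had 4.76 to 5.26 against 5.32 and 5.58, with 6 of 7 lower. The part of each in the differences of the SREBP pathway genes was not tested.

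**Figure D4:**
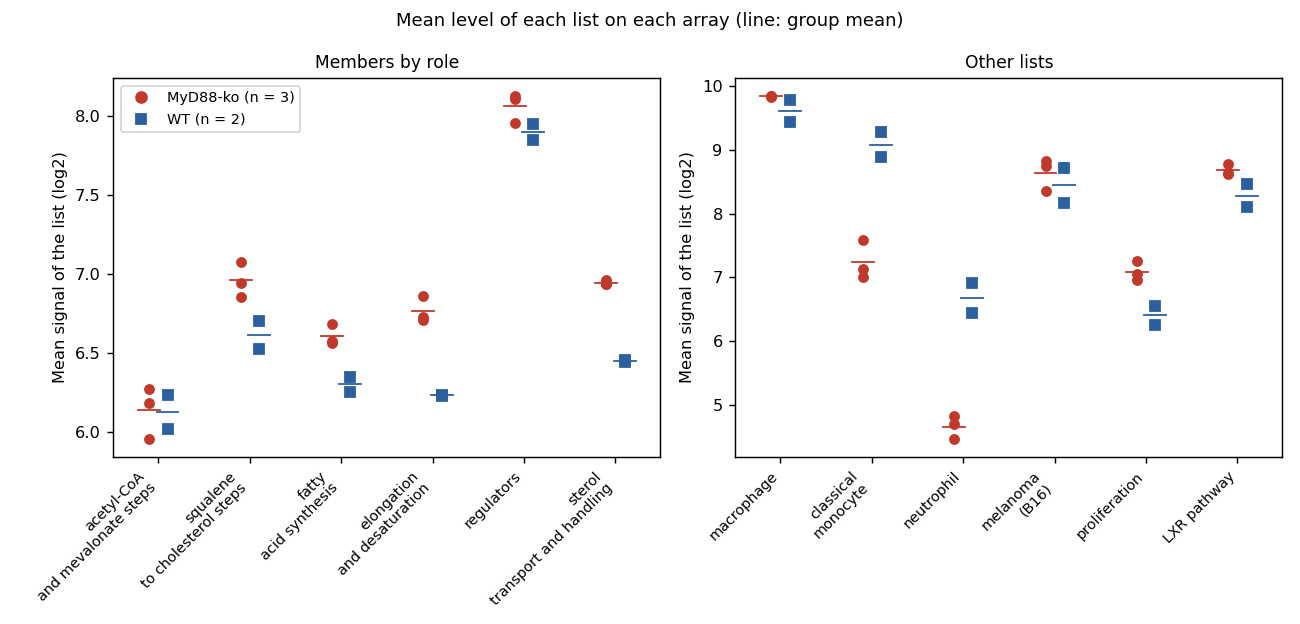
Mean log2 signal (vertical axis) of the members by role (left) and of 6 other lists (right) on each of 3 MyD88-ko arrays (circles) and 2 WT arrays (squares), with group means as lines. The genotypes overlap in the mevalonate steps and in no other role, with the regulators nearly touching. The proliferation, neutrophil, monocyte and LXR lists are separated as well, and the macrophage list only narrowly.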

How the data were processed

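The deposited table held log2 values that the authors made, per the submitters' processing notes, in Affymetrix Expression Console 1.1 by RMA. RMA corrects background, normalizes by quantiles and summarizes probe sets, which compresses differences of dim genes. The sources used here name no genome build. Of 28846 rows, 19572 had 1 gene symbol, and for genes with several probe sets the one with the highest mean was kept, leaving 19505 genes. All were fitted with limma 3.58.1 (R 4.3.3; lmFit, eBayes, genotype as the only term, 3 residual degrees of freedom) and adjusted with Benjamini-Hochberg. The fit was tested on simulated data with known changes. The background limit is the 95th percentile of the negative controls. For an "at least" fold, each dim array's value was raised to its limit where lower, and the mean of these was set against the bright mean. The log2 differences are MyD88-ko minus WT. Arrays have no read depth.

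Members, lists and tests were chosen with earlier results of these data known. Every measured member is described. Of other pathway genes, those that passed or the 4 with the lowest p were to be named, and all measured LXR pathway genes. Mbtps1 and Insig2 were named beyond that rule, after their values were seen. Alternatives were other normalizations, filters, moderation, array weights, a replicate block, a Y-linked covariate, other thresholds and members, and each array left out.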

Additional observations from a re-analysis of the deposited data

How the results depend on the processing

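No member passed in any fit at an adjusted p under 0.05, and 1, Dhcr7, did at 0.1 (84 genes in all). The number of genes passing was 63 with cyclic loess, 15 with array weights and 0 with the Y-linked covariate, against 37, and 0 to 1 when each array was left out. The fatty acid median was 0.088 with the Y-linked covariate and 0.29 to 0.51 with arrays left out. The replicate block gave 0.29, the same estimate as leaving out MyD88-ko replicate 3, which has no WT partner. The sterol median kept its sign in all fits. Apart from the filtered set, it lay between 0.14 with the Y-linked covariate and 0.31 without WT replicate 1. Over the sterol genes above the limit on all arrays it was 0.097. Among genes above the background limit on at least 1 array it was 0.36, but Lss, Msmo1, Nsdhl and Dhcr7 met that filter on MyD88-ko arrays only. Nothing is read from that rise. In that filtered set 2 fatty acid genes lay higher without overlap, because fewer genes were tested. The contrast of the branches turned to 0.056 with the Y-linked covariate (the cause was not tested) and ran from -0.25 to -0.03 with arrays left out. As that covariate separated the genotypes without overlap, nothing is read from its fit.

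The replicate number as a block gave 70 genes and 0 members. The labels do not tie same-numbered samples, replicate 3 has no WT partner, and the same-numbered deviations correlated at 0.059 and 0.10, so the numbers were not taken as pairs. Of the 30 members, 20 kept their sign under all alternatives, of which the replicate block and the fit without MyD88-ko replicate 3 gave the same differences. Where 1 WT array remained, its spread was taken to equal that of the MyD88-ko arrays. Equal array medians moved the median of all genes to 0.075.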
